A study of Mus musculus with 8 samples.

Results

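Transcripts of 10 genes that heart muscle cells use to contract were followed in macrophages sorted from mouse left ventricles. The genes were Tnnt2, Tnni3, Tnnc1, Actc1, Actn2, Myh6, Myl2, Myl3, Atp2a2 and Ryr2, chosen by name among the 36708 genes of the deposited table, by a rule that uses no measured value, though the list was drawn up with earlier results of these data known. The question is how much cardiomyocyte RNA, whether engulfed or free in the cell suspension, was read in macrophage libraries, and whether its level differed between the groups. All 10 genes had values above 0 TPM (transcripts per 1000000, a level per transcript length) in every library, and 9 of them reached the mean of 1 TPM needed for testing. Ryr2 did not. The troponin, actin and light chain genes averaged 19.1 to 32.4 TPM with no detected difference between the groups. Actn2, Atp2a2 and Myh6 averaged 2.11 to 2.45 times as much in LOY as in control libraries, and none of them passed the test over all genes.

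The LOY group held 4 libraries from recipients of bone marrow of the genotype LOY (loss of the Y chromosome), and the control group held 4 libraries from recipients of control marrow. The treatment given in the labels was Control for all 8, and the tissue was the heart. The sources used here do not give strain, sex, age, the way the Y chromosome was lost or the source of the red fluorescent protein used for sorting. Hearts were flushed and digested with enzymes, and about 6000 living cells per library were sorted as CD45.2+ Ly6G- CD64+ RFP+. The labels do not tie libraries to animals, so a p-value here reflects only how far these libraries spread, part of which may be technical.

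Contraction of a heart muscle cell starts when calcium leaves the sarcoplasmic reticulum through the ryanodine receptor. Calcium then binds the troponin complex on the thin filament, which lets myosin heads of the thick filament pull on actin. The pump SERCA returns the calcium to its store, and the Z disc anchors the thin filaments. Heart macrophages lie against cardiomyocytes and are known to take up debris and vesicles shed by them.

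The libraries read as macrophages. The 12 macrophage markers summed to between 36477 and 52107 TPM in LOY libraries and between 40326 and 47069.6 TPM in control libraries. Summed TPM of the Y-linked genes Ddx3y, Eif2s3y, Kdm5d and Uty was 2.77, 46.4, 1.49 and 2.12 in LOY libraries 1 to 4, against 80.8 to 109 TPM in control libraries. LOY library 2 thus stood apart from the other LOY libraries. Among the cardiac genes, calls that were lost without LOY library 2 are given beside the result, for Myh6 and Slc8a1. For the skeletal muscle, non-muscle, other cell, macrophage and uptake receptor lists, whether calls held without LOY library 2 is not given here. TPM sums to the same total in every library, so the read depth is unknown. In bulk RNA, fewer cells of a type and less RNA per cell cannot be told apart, and TPM adds up all transcripts of a gene. The kit keeps no strand, and some genes overlap the span of another: Tnnc1 that of Nisch, on the opposite strand and at up to 193 TPM, Tnni3 that of Dnaaf3, at up to 13.1 TPM, and Myl2 that of Ccdc63, on the opposite strand and at up to 4.32 TPM. Of these 3, the annotated transcripts share a stretch of 50 bases only in the case of Myl2.

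The sequences show how far reads of these genes can be told from those of their closest relatives. In the GENCODE M21 transcripts (GRCm38), no stretch of 50 bases of Tnnt2, Tnni3, Tnnc1, Actc1 or Myl3 occurred in a transcript of another gene. Actc1, the cardiac actin, and Acta1, the skeletal muscle actin, had 86.3% identical coding bases, and their longest identical run was 29 bases. Myh6, the fast cardiac myosin heavy chain, and Myh7, the slow one, had 91.7% identical coding bases with a run of 245, and 22.6% of the 50-base stretches of Myh6 also occurred in Myh7. For Atp2a2 the shared percentage was 5.43, of which 4.58 lay in the gene model Gm30970, and for Myl2, Actn2 and Ryr2 it was 2.14, 0.0675 and 0.0835. The first 60 coding bases of both pairs are given here as spliced coding sequence, and capitals mark the bases that differ within a pair (9 in the actins, 14 in the myosins).
Actc1: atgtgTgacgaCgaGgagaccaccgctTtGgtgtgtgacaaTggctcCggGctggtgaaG
Acta1: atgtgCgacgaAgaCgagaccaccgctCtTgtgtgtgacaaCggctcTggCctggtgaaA
Myh6: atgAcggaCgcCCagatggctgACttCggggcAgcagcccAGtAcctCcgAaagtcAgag
Myh7: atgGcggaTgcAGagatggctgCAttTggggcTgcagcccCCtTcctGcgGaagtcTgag

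For the thin filament genes, the group means lay closer together than the libraries of a group. Tnnt2 (chr1:135836354-135852260, + strand), which encodes cardiac troponin T, the subunit that ties troponin to tropomyosin, had 64.6, 28.1, 20.1 and 16.7 TPM in LOY libraries 1 to 4 and 38.3, 23.6, 38.6 and 17.5 TPM in control libraries 1 to 4. LOY library 1 was the highest and LOY library 4 the lowest of all 8, so the groups overlapped entirely. The log2 fold change of LOY over control, taken on log2(TPM + 1) as all such values here, was 0.00 with an SE of 0.39 (limma adjusted p = 0.997). Without LOY library 1 it was -0.39 (adjusted p = 0.401).

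Tnni3 (chr7:4518305-4524229, - strand), cardiac troponin I, the inhibitory subunit, had 38.7, 24.1, 18.0 and 26.7 TPM in LOY libraries and 30.1, 23.6, 32.5 and 12.6 TPM in control libraries. Tnnc1 (chr14:31208312-31211729, + strand), troponin C, the subunit that binds calcium, had 28.2, 19.3, 15.3 and 14.8 TPM in LOY libraries and 21.7, 20.3, 21.8 and 12.5 TPM in control libraries. LOY library 1 was again the highest and control library 4 the lowest for both genes. Actc1 (chr2:114047282-114053548, - strand), the actin of the cardiac thin filament, had 37.2, 31.1, 21.9 and 16.0 TPM in LOY libraries and 24.5, 27.4, 20.6 and 20.3 TPM in control libraries. Log2 fold changes were 0.15 ± 0.30 for Tnni3, 0.01 ± 0.24 for Tnnc1 and 0.13 ± 0.24 for Actc1 (limma, ± SE), with adjusted p-values of 0.783, 0.985 and 0.759. The 95% intervals, which reached at most 0.81 on the log2 scale for Tnni3, leave room for differences of moderate size in either direction.

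The thick filament genes separated into the light chains, whose group means lay within the spread between libraries, and the heavy chain, whose mean was higher in LOY libraries. Myl2 (chr5:122100951-122113472, + strand), the regulatory light chain of the ventricle, had 29.7, 19.9, 17.8 and 14.3 TPM in LOY libraries and 23.4, 24.3, 18.0 and 11.4 TPM in control libraries. Myl3 (chr9:110741861-110769798, + strand), the essential light chain, had 39.1, 22.2, 15.7 and 13.1 TPM in LOY libraries and 24.6, 19.8, 21.5 and 14.2 TPM in control libraries. For both light chains LOY library 1 lay above every control library, and the other 3 LOY libraries lay within or below the control range. Their log2 fold changes were 0.09 ± 0.27 for Myl2 and 0.07 ± 0.30 for Myl3 (limma, ± SE, adjusted p = 0.858 and 0.906).

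Myh6 (chr14:54941921-54966927, - strand), the main myosin heavy chain of the adult mouse heart, had 11.7, 6.40, 2.44 and 5.77 TPM in LOY libraries and 4.71, 2.46, 2.95 and 1.52 TPM in control libraries. LOY libraries 1, 2 and 4 were above all control libraries, and LOY library 3 was below 3 of the 4 control libraries. The mean was 6.58 ± 3.83 TPM in LOY and 2.91 ± 1.34 TPM in control libraries (SD, n = 4 each). The log2 fold change was 0.87 ± 0.38 (± SE, limma adjusted p = 0.208, unadjusted limma p = 0.0429), so the difference did not pass over all genes tested, and the exact permutation test of the TPM values gave p = 0.114. Without LOY library 1 it was 0.57 (unadjusted p = 0.125) and without LOY library 2 it was 0.83 (unadjusted p = 0.0827). The unadjusted p was under 0.05 in 7 of 17 alternatives, and it was 0.110 with quantile normalization, 0.0687 with median-of-ratios scaling and 0.0581 in the limma fit without the filter. Myh7, whose RNA shares much of its sequence with Myh6, stayed between 0.276 and 0.936 TPM over the 8 libraries, and the ratio of Myh6 to Myh7 ranged between 3.15 and 17.8.

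The Z disc gene and the calcium pump gene had group means that differed by a log2 of about 1. Actn2 (chr13:12269426-12340760, - strand), the muscle alpha-actinin that cross-links thin filaments at the Z disc, had 4.98, 6.10, 3.65 and 6.29 TPM in LOY libraries and 3.73, 1.42, 1.25 and 2.20 TPM in control libraries. Only LOY library 3 and control library 1 kept the groups from separating. Mean levels were 5.26 ± 1.22 TPM in LOY and 2.15 ± 1.13 TPM in control libraries (SD, n = 4 each). The log2 fold change was 1.03 ± 0.26 (limma, ± SE, p = 0.00246, adjusted p = 0.179), and an exact two-sided permutation test of the TPM values over the 70 assignments gave p = 0.0571, where the smallest p possible is 0.0286.

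Atp2a2 (chr5:122453513-122502225, - strand), which encodes the calcium pump SERCA2 of the heart, had 35.9, 56.8, 50.6 and 61.8 TPM in LOY libraries and 38.0, 19.3, 13.1 and 27.0 TPM in control libraries. LOY libraries 2, 3 and 4 exceeded all control libraries, while LOY library 1 lay just under control library 1. Its mean was 51.3 ± 11.2 TPM in LOY and 24.3 ± 10.7 TPM in control libraries (SD, n = 4 each), with a log2 fold change of 1.12 ± 0.29 (limma, ± SE, p = 0.00307, adjusted p = 0.179) and p = 0.0571 in the exact permutation test. SERCA2 also has a form used by cells outside muscle, and summed TPM does not separate the forms. Atp2a3, a calcium pump gene of blood cells, had 17.0, 27.1, 20.7 and 30.3 TPM in LOY libraries and 29.8, 11.6, 7.01 and 16.1 TPM in control libraries, and the ratio of Atp2a2 to Atp2a3 was 2.04 to 2.44 in LOY and 1.27 to 1.87 in control libraries. The ratio was looked at after the values were known and was not tested.

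Ryr2 (chr13:11553102-12106945, - strand), the ryanodine receptor of the heart, was the lowest of the 10, with 0.419, 0.395, 0.575 and 0.845 TPM in LOY libraries and 0.0831, 0.204, 0.306 and 0.562 TPM in control libraries. The LOY values lay within or above the control range, with 2 of 4 above every control library. In a fit without the filter on low levels its log2 fold change was 0.28 ± 0.14 (limma, ± SE, adjusted p = 0.413), a scale that understates changes of so low a gene.

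**Figure D1:**
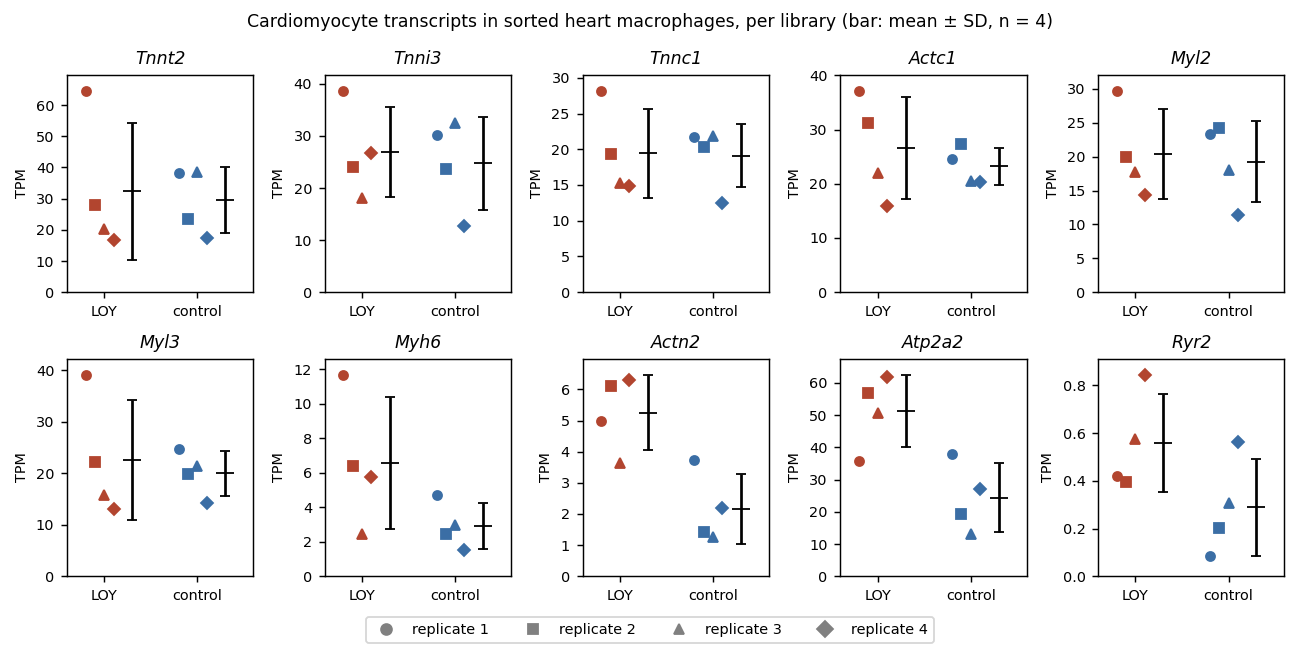
Level of each of the 10 cardiomyocyte transcripts in TPM (vertical axes, each starting at 0) in 4 LOY and 4 control libraries, with the replicate shown by the marker shape and the mean ± SD by the bar at the right of each group. LOY replicate 1 is the highest of the 8 libraries for Tnnt2, Tnni3, Tnnc1, Actc1, Myl2, Myl3 and Myh6, whereas Actn2 and Atp2a2 have 3 of 4 LOY libraries above every control library.

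Ordered by mean TPM over the 8 libraries, Atp2a2 came first with 37.8 ± 17.6 TPM (SD, n = 8), followed by Tnnt2, Tnni3, Actc1, Myl3, Myl2 and, at 19.3 ± 4.99 TPM, Tnnc1. Neighbours within these 7 genes had overlapping ranges, and none differed in an exact paired permutation test, where p lay between 0.0625 for Actc1 over Myl3 and 0.734 for Tnni3 over Actc1. Below them Myh6 averaged 4.74 ± 3.30 TPM (SD, n = 8) and was under Tnnc1 in 8 of 8 libraries (exact paired permutation p = 0.00781, the smallest possible). Myh6 and Actn2, at 3.70 ± 1.98 TPM, overlapped (exact paired permutation p = 0.289). Ryr2, at 0.423 ± 0.239 TPM, was under Actn2 in 8 of 8 libraries. The 10 genes together took 0.0120% to 0.0291% of the summed TPM of a library, or 290.5, 214.4, 166.3 and 176.4 TPM in LOY libraries and 209.2, 162.3, 170.7 and 120.0 TPM in control libraries. Without Atp2a2 the other 9 summed to 114.6 to 254.6 TPM in LOY and 93.0 to 171.2 TPM in control libraries, with overlap.

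Counted together, 3 of the 9 tested genes (Actn2, Atp2a2 and Myh6) were higher in LOY libraries at an unadjusted limma p under 0.05 and none was lower. Over all 11725 genes tested, 19.3% were higher and 3.45% lower at the same threshold, so higher values in LOY were common in the table. With 1 library left out, the share higher lay between 9.93% (without control library 3) and 29.5% (without control library 1), and it was 11.4% without LOY library 2. None of the 9 passed the adjusted threshold, nor did any gene of the table (0.0% called). At the unadjusted threshold 2262 genes were higher and 405 lower, or 22.7% in either direction. The median log2 fold change was 0.13 over the 9 genes and 0.16 over all genes tested, and with quantile normalization it was -0.081 over the 9. The groups overlapped for all 10 genes, whereas 6.76% of all genes tested had every LOY library above every control library.

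In the fits made here, Actn2 and Atp2a2 passed the adjusted threshold only without control library 1 or with library weights. Without control library 1, Actn2 stood at 1.25 on the log2 scale (limma, adjusted p = 0.0122) and Atp2a2 at 1.36 (adjusted p = 0.0136). That fit called 14.9% of all genes higher. Library weights, which gave control library 1 a weight of 0.455 and LOY library 1 one of 0.371, put both at an adjusted p of 0.0096 and called 23.5% of all genes higher (33.6% at an unadjusted p under 0.05). In the other 7 fits that leave out 1 library their adjusted p lay between 0.139 and 0.402. In the authors' deposited table, which holds a test of its own, Actn2 had a log2 fold change of 1.14 (adjusted p = 0.00986) and Atp2a2 one of 1.14 (adjusted p = 0.0168), and that table calls 3.82% of 16073 genes higher at an adjusted p under 0.05 (3.94% in either direction). For Ryr2 and Myh6 the authors' deposited table gives 1.09 (adjusted p = 0.0726) and 0.93 (adjusted p = 0.107), and for the 6 other genes it gives values between -0.02 and 0.15.

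Among the tested genes, fold changes were larger for long transcripts than for short ones, though the longest, Myh6, did not have the largest. The 6 genes with a longest transcript under 2000 bases, between 721 bases for Tnnc1 and 1473 for Actc1, had log2 fold changes between 0.00 and 0.15. The 3 tested genes with longer transcripts, Actn2 with 3013 bases, Atp2a2 with 4486 and Myh6 with 6113, had 1.03, 1.12 and 0.87. Across the 9 genes Spearman's rho between length and log2 fold change was 0.683, and across 11663 tested genes with a length it was 0.523. Across the 38 tested genes of 3 other cardiac lists it was lower, at 0.353. Genes are not independent replicates, so no p is given. When all tested genes were divided into 5 length bins, the median log2 fold change was -0.13 in the shortest and 0.39 in the longest bin, and the share higher at an unadjusted p under 0.05 was 3.99% and 37.6%.

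After a trend on length had been removed from each library, the log2 fold change was 0.82 for Actn2, 0.76 for Atp2a2 and 0.48 for Myh6, and between 0.12 and 0.28 for the 6 short genes. Actn2 and Atp2a2 then had an unadjusted limma p of 0.00239 and 0.00307 (adjusted p = 0.244 for both), in a fit where 7.23% of all genes were higher at an unadjusted p under 0.05. Myh6 had an adjusted p of 0.551 in the same fit. Whether transcript length, and the RNA quality or cDNA synthesis it can reflect, has a part in these differences was not tested beyond this.

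**Figure D2:**
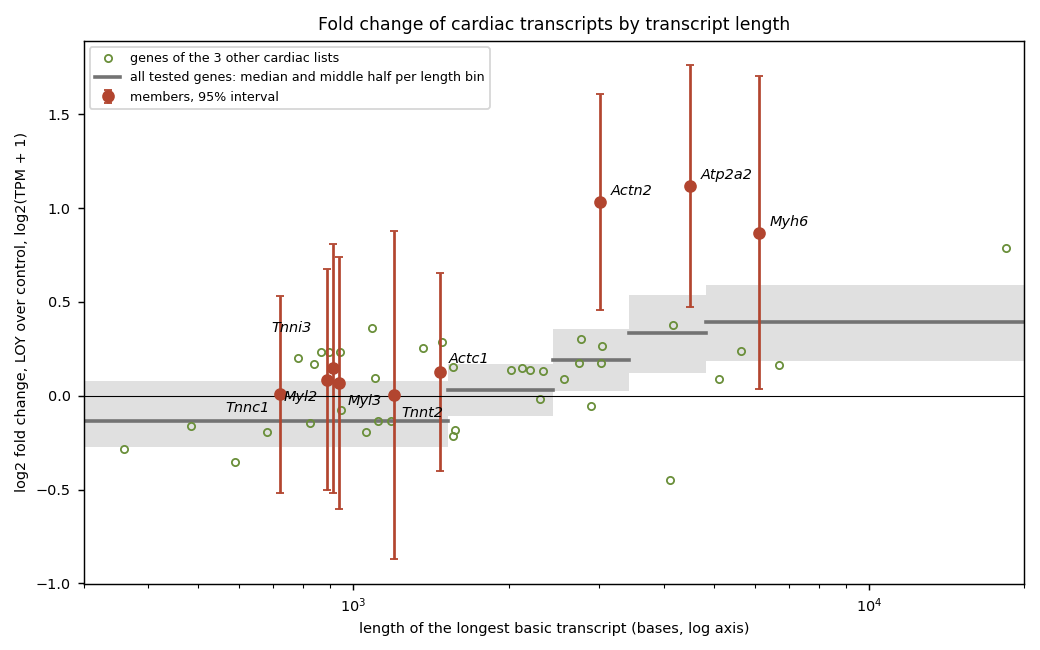
Log2 fold change of LOY over control on log2(TPM + 1) (vertical axis) against the length of the longest basic transcript in bases (horizontal log axis) for the 9 tested cardiomyocyte genes with 95% intervals, for 38 tested genes of 3 other cardiac lists (open circles; the longest, Slc8a1, near the right edge), and for all tested genes as the median and interquartile range in 5 length bins, whose outer bins run past the axis. The 6 short genes lie near 0 and Actn2, Atp2a2 and Myh6 lie between 0.87 and 1.12, above the median of their bins (0.19, 0.34 and 0.39).

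The short genes had like patterns over the 8 libraries, which rested in part on LOY library 1 and control library 4. Pearson's r of log2(TPM + 1) over the 8 libraries had a median of 0.80 over the 15 pairs of these 6 genes, and ranged between 0.386 for Tnni3 with Actc1 and 0.966 for Tnnt2 with Myl3. Within their own sum, which was 237.5, 144.7, 109.0 and 101.6 TPM in LOY libraries and 162.7, 138.9, 153.0 and 88.7 TPM in control libraries, Tnnc1 took 11.9% to 14.6% and Myl3 took 12.9% to 16.5% in every library. Tnnt2 took between 16.5% in LOY library 4 and 27.2% in LOY library 1, and Tnni3 between 26.3% in LOY library 4 and 14.3% in control library 4. All 6 were highest in LOY library 1. With LOY library 1 and control library 4 left out, r of a short gene with the mean of the other tested genes except Atp2a2 was 0.457 for Tnnt2, 0.340 for Tnni3, 0.522 for Tnnc1, 0.410 for Actc1, 0.314 for Myl2 and 0.681 for Myl3, against 0.703 to 0.886 over all 8 libraries.

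The long genes did not share that pattern to the same degree. Myh6 had r between 0.536 and 0.763 with the short genes, Actn2 between -0.00 and 0.19, Atp2a2 between -0.27 and -0.01, and Ryr2 between -0.62 and -0.35. Actn2 and Atp2a2 followed each other with r = 0.934, and their ratio stayed between 7.20 and 13.9. The libraries differ in the share of mitochondrial transcripts, which was lowest in LOY library 1 at 1.15% and at most 2.53% elsewhere. These correlations describe 8 libraries that share their total, and no test was made of them.

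**Figure D3:**
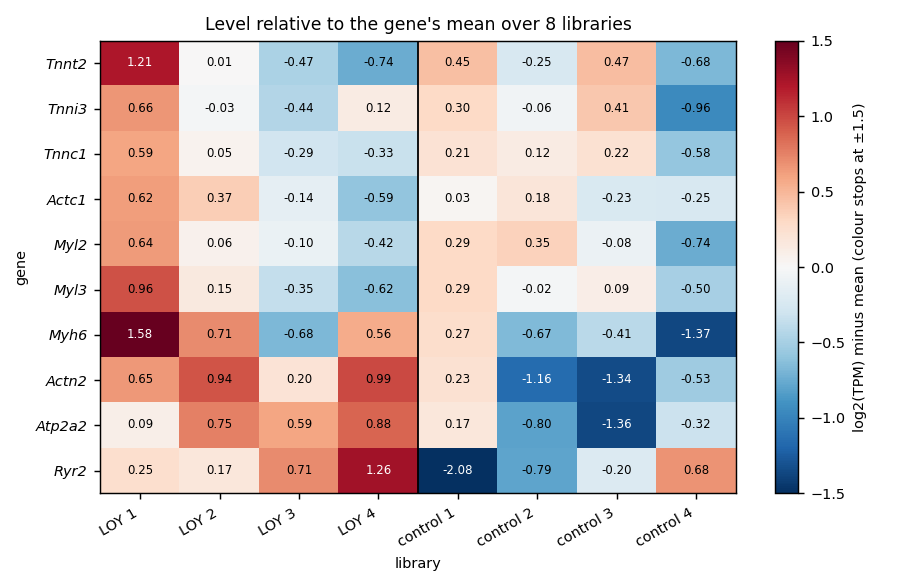
Level of each cardiomyocyte gene (rows) in each library (columns, 4 LOY at the left and 4 control at the right) as log2(TPM) minus the mean of the gene over the 8 libraries, printed in the cells and shown as colour that stops at ±1.5. Tnnt2, Tnni3, Tnnc1, Actc1, Myl2 and Myl3 share a high value in LOY 1, at 0.59 to 1.21, whereas Actn2 and Atp2a2 share low values in control 2 and control 3.

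A mean over the tested genes other than Atp2a2, 8 genes in all, was used to look for genes elsewhere in the table with a like pattern over the 8 libraries. The 10 named genes with the highest Pearson's r were Ak1 (0.981), Rapgef6 (0.958), Ddb2 (0.957), Zc3h13 (0.955), Snx7 (0.951), Pink1 (0.950), Cdh13 (0.946), Tra2b (0.943), Nicn1 (0.939) and Lman1 (0.937). Ak1 encodes an adenylate kinase abundant in muscle, and Cdh13 encodes T-cadherin, which cardiomyocytes also carry. A link to muscle was not examined for the others of the 10. Among them Tra2b had 110 to 143 TPM and Rapgef6 had 25.6 to 44.2 TPM over the 8 libraries. Ak1 had 4.61, 3.22, 2.03 and 2.16 TPM in LOY libraries and 2.71, 2.29, 2.31 and 1.66 TPM in control libraries, in the same order as the mean (Spearman's rho = 1.0). Without LOY library 1 and control library 4, the libraries farthest from the median of the mean, r was 0.938 for Ak1 and between 0.696 and 0.913 for the other 9 genes. They were picked as the highest of 11725, so the values are a description.

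Other cardiac genes were read at levels close to those of the 10. Of 65 genes in 3 further cardiac lists, 38 were tested, and 1 was higher and 1 lower at an unadjusted limma p under 0.05, with a median log2 fold change of 0.14, against 19.3% higher, 3.45% lower and a median of 0.16 over all genes tested. The median of these lists was -0.099 with quantile normalization, -0.022 with median-of-ratios scaling and -0.049 without LOY library 1. Higher was Slc8a1, the sodium-calcium exchanger, which had 7.03, 15.1, 9.79 and 14.4 TPM in LOY and 9.44, 7.17, 3.03 and 6.10 TPM in control libraries (log2 fold change 0.79, limma adjusted p = 0.193). Without LOY library 2 it was 0.65 (limma adjusted p = 0.375). The unadjusted p exceeded 0.05 in that fit and also without LOY library 4, control library 3 or control library 4, with quantile normalization and with the length trend removed. Lower was Lpl, lipoprotein lipase, a gene that macrophages also express, with 194 to 223 TPM in LOY and 240 to 410 TPM in control libraries (log2 fold change -0.45, adjusted p = 0.184). Other abundant genes of these lists did not reach that p. The thin filament gene Tpm1, which is also used outside muscle, had 46.9 ± 10.5 TPM in LOY and 48.1 ± 3.45 TPM in control libraries (SD, n = 4 each). The Z disc gene Tcap had 21.6 ± 13.4 TPM in LOY and 21.0 ± 6.02 TPM in control libraries, and the stress gene Ankrd1 had 21.4 ± 9.36 TPM in LOY and 19.0 ± 6.51 TPM in control libraries. Myoglobin, Mb, had 24.2 ± 4.60 TPM in LOY and 23.0 ± 5.86 TPM in control libraries. The very long transcript of titin, Ttn, was low, with 0.266 to 1.20 TPM.

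Genes used mainly by the atrium varied in a pattern of their own, seen after their values were known. Nppa, the atrial natriuretic peptide gene, had 13.9, 20.5, 12.3 and 25.0 TPM in LOY libraries and 30.9, 4.04, 38.9 and 8.05 TPM in control libraries. Myl7, the atrial regulatory light chain, had 2.56, 1.52, 1.53 and 6.65 TPM in LOY libraries and 14.8, 0.439, 11.1 and 0.685 TPM in control libraries. Control libraries 1 and 3 were the highest for both, and LOY library 4 was the highest of the LOY libraries. Myl4, the atrial essential light chain, and Sln, which encodes the SERCA regulator sarcolipin, had the same 3 libraries on top. The ventricular Myl2 was highest in LOY library 1, and the ratio of Myl2 to Myl7 ranged between 1.59 in control library 1 and 55.2 in control library 2. No group difference was detected in the 4 atrial genes (unadjusted limma p between 0.563 and 0.699, Sln in the fit without the filter).

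**Figure D4:**
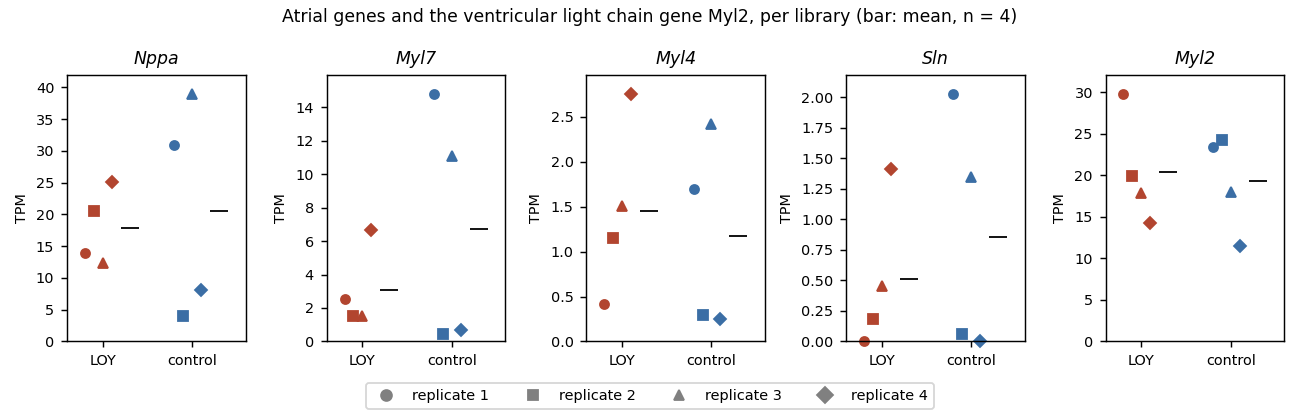
Level of 4 atrial genes and of the ventricular light chain gene Myl2 in TPM (vertical axes starting at 0) in 4 LOY and 4 control libraries, with the replicate shown by marker shape and the group mean by a bar. Control replicates 1 and 3 and LOY replicate 4 are the highest 3 for Nppa, Myl7, Myl4 and Sln, and Myl2 is highest in LOY replicate 1.

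The relatives that other cells use in place of these proteins set the scale. Actb, the actin of non-muscle cells, had 10500.0 ± 2353 TPM in LOY and 11781 ± 3954 TPM in control libraries (SD, n = 4 each), and the ratio of Actc1 to Actb was between 0.00143 and 0.00486. Actn4, a non-muscle alpha-actinin, had 157 ± 18.8 TPM in LOY and 112 ± 38.1 TPM in control libraries. Of 12 tested non-muscle relatives, 3 were higher (Myh9, Actn4 and Itpr2) at an unadjusted limma p under 0.05, Myl12a was among those lower, and none passed the adjusted threshold. The shares over all genes tested were 19.3% higher and 3.45% lower. Myh9, the non-muscle myosin heavy chain, had a log2 fold change of 0.81 (adjusted p = 0.190), close to the 0.87 of Myh6.

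Skeletal muscle genes were mostly near 0. Of 17 markers 11 stayed under 1 TPM in every library, and the list summed to 26.3 to 32.0 TPM in LOY and 26.7 to 36.1 TPM in control libraries. Most of this came from Acta1, an actin that the heart also expresses, at 14.0 ± 4.18 TPM in LOY and 9.82 ± 2.47 TPM in control libraries (SD, n = 4 each), and from Tnni2, the fast troponin I, at 9.69 ± 1.49 TPM in LOY and 13.0 ± 1.79 TPM in control libraries. The ratio of Actc1 to Acta1 was between 1.55 and 3.03. Mylpf, a light chain of fast fibres, had 1.67 to 2.85 TPM in LOY and 3.92 to 6.45 TPM in control libraries, without overlap (log2 fold change -0.95, limma adjusted p = 0.179), and 2.61% of all tested genes had every LOY library below every control library. Of 3 tested genes of the list, 2 (Mylpf and Tnni2) were lower at an unadjusted limma p under 0.05 and none was higher. Their median log2 fold change was -0.39. Over all genes tested, 3.45% were lower and 19.3% higher at that p, with a median of 0.16. Myh4, the heavy chain of fast fibres, stayed at or under 0.0145 TPM.

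Markers of other cells of the heart and blood were present at levels that did not follow the cardiomyocyte genes in every library. Endothelial markers summed to 74.8 to 110 TPM in LOY and 86.7 to 96.4 TPM in control libraries. Ly6c1, Vwf and Fabp4, the most abundant of them, averaged 24.1, 21.8 and 17.5 TPM over the 8 libraries. Pecam1 was at 2.48 to 8.98 TPM and Cdh5 at no more than 1.68 TPM over all 8. Fibroblast markers summed to 366 to 480 TPM in LOY and 355 to 500 TPM in control libraries, most of it from Gsn, which macrophages also use. Dcn was at 10.4 to 24.1 TPM, Postn at 3.09 to 7.77 TPM and Col1a1 at 0.215 to 0.905 TPM. Mural cell markers summed to 11.6 to 28.0 TPM in LOY and 14.5 to 19.5 TPM in control libraries, with Tagln at 4.56 to 13.5 TPM and Myh11 at no more than 0.514 TPM. Red blood cell markers summed to 284, 905, 205 and 171 TPM in LOY and 210, 493, 214 and 641 TPM in control libraries. The libraries high in haemoglobin RNA, LOY 2, control 4 and control 2, were therefore other ones than LOY 1, which was highest for the short cardiomyocyte genes.

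Among blood cell markers, the neutrophil list summed to 83.6 to 102 TPM in LOY and 45.1 to 89.6 TPM in control libraries, mostly from Csf3r. S100a9 and Mmp8 reached at most 6.17 and 3.52 TPM, and the neutrophil granule gene Ngp was at 0 TPM in all 8. T and NK cell markers summed to 5.59 to 11.1 TPM in LOY and 6.99 to 7.82 TPM in control libraries. B cell markers summed to 516 to 976 TPM in LOY and 638 to 880 TPM in control libraries, mostly Ighm. Over the 8 libraries Cd79b had 35.1 to 75.1 TPM and Igkc 1.72 to 23.1 TPM, while Pax5 was at 0 in 5 of 8. Of the tested genes in these lists, 1 of 9 endothelial (Kdr) and 1 of 4 neutrophil genes (Csf3r) were higher, 1 of 9 endothelial (Vwf) and 1 of 5 B cell genes (Cd79b) were lower at an unadjusted limma p under 0.05, and no gene of the 7 fibroblast, 3 mural, 5 red blood cell and 3 T and NK cell genes tested reached it. Among the 12 macrophage markers 3 (Mertk, Csf1r and Itgam) were higher at that p and none was lower, with a median log2 fold change of 0.11. Over all genes tested, 19.3% were higher and 3.45% lower at that p, with a median of 0.16.

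**Figure D5:**
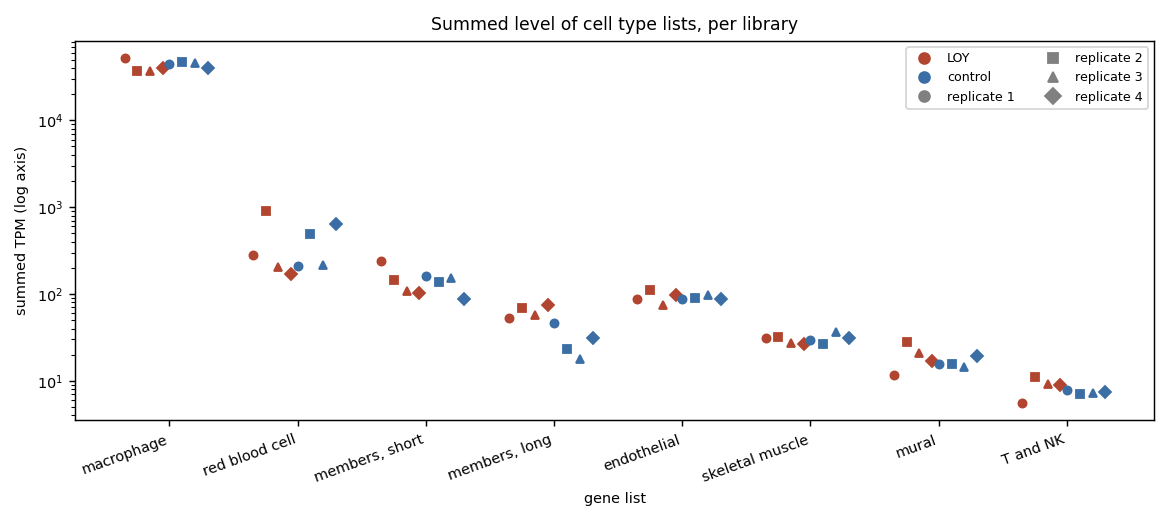
Summed TPM (vertical log axis) of marker lists and of the 6 short and 4 long cardiomyocyte genes in 4 LOY and 4 control libraries, with the replicate shown by marker shape. The long cardiomyocyte genes sum to 53.0 to 74.7 TPM in LOY and 17.6 to 46.5 TPM in control libraries. Most of this is Atp2a2, which cells outside muscle also use, at 35.9 to 61.8 TPM in LOY and 13.1 to 38.0 TPM in control libraries. Of all genes tested, 6.76% have every LOY library above every control library. The short ones sum to 101.6 to 237.5 TPM in LOY and 88.7 to 162.7 TPM in control libraries.

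Receptors by which macrophages bind dead cells and lipids were set beside the cardiomyocyte genes. Of 12 tested uptake receptor genes, 5 were higher in LOY libraries at an unadjusted limma p under 0.05, none was lower, and none passed the adjusted threshold, where 19.3% of all genes tested were higher and 31.5% and 37.6% of those in the longest 2 length bins. Mertk, a receptor for dead cells, had 35.5, 52.5, 41.4 and 73.3 TPM in LOY libraries and 32.1, 21.6, 12.1 and 21.7 TPM in control libraries, with a log2 fold change of 1.20 (adjusted p = 0.179). Every LOY library exceeded every control library, as held for 6.76% of all genes tested. Its relative Axl (log2 fold change 0.77), the integrin genes Itgb5 (0.64) and Itgav (0.36) and the scavenger receptor gene Stab1 (0.51) were the others. These transcripts are long, with a median of 4284 bases over the tested receptor genes against 1200 over the 9 cardiomyocyte genes. With the length trend removed the value for Itgav, the smallest of these fold changes, was -0.03. For Mertk, Axl, Itgb5 and Stab1 the value in that fit is not given here. Msr1, a receptor for modified lipoproteins, had 194 ± 53.4 TPM in LOY and 199 ± 10.2 TPM in control libraries (SD, n = 4 each). No relation between the receptors and the cardiomyocyte RNA was tested.

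The promoters of the 10 genes were searched for sequences that muscle factors are known to bind. RefSeq promoters (GRCm38.p6, windows of 300 bases around the annotated start) were at hand for 9 of the 10 genes, and a few had more than 1, for 11 in all. A gene was counted if any of its promoters held a match, whereas the percentages count single promoters, so the units differ. On either strand the TATA box, searched as TATAAA, occurred in 3 of the 9 (Actc1, Myh6 and Myl2) and in 13.6% of all 32851 promoters. The site of TEAD factors, searched as CATTCC, occurred in 4 (Myh6, Myl3, Tnnc1 and Tnnt2) and in 14.7%. The E-box of muscle regulators, searched as CAGCTG, occurred in 2 (Myl2 and Tnnt2) and in 16.3%. The site of GATA factors, searched as AGATAA, occurred in the same 2 and in 11.2%. The CArG box of serum response factor occurred in 2 (Actc1 and Myl3) and in 1.63% of all promoters. The core of MEF2 sites, searched as TAAAAATA, occurred in none of the 9 and in 2.72%. The promoters of Actc1 (chr2:114052826-114053125, - strand) and Tnnt2 (chr1:135836084-135836383, + strand) are shown as examples of thin filament genes, with the matches in capitals. A match is a description of the letters and not a sign that a factor is bound.
Actc1: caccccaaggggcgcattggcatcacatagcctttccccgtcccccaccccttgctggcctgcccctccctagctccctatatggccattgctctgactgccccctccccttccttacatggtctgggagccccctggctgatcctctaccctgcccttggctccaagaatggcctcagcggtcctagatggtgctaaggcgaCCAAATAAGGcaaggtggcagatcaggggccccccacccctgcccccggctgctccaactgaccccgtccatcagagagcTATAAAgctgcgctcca
Tnnt2: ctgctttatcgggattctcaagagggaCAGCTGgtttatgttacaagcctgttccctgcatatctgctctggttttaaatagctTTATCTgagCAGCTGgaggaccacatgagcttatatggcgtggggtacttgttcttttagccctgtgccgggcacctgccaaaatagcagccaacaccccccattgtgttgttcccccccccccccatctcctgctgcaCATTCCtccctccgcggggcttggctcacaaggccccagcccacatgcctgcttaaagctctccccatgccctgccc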

How the data were processed

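TPM values made by the authors were deposited for each gene and library, under headers ending in TPM_sum. They were read as sums over transcripts, and WT as control, KO as LOY and the numbers as replicate numbers, from the names alone. The submitters' processing notes name the builds mm10 and GRCm38, the aligner STAR 2.5.2b, Subread 1.5.2 with featureCounts, Trimmomatic 0.36 and bcl2fastq 2.17, and the sources used here do not say which step made TPM. The authors also deposited a log2 fold change, its p-value and adjusted p, and a baseMean that was a whole multiple of 1/8 in all rows (tolerance 1e-06). These are used where that table is named as the source.

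Genes averaging 1 TPM or more were kept, 1 copy was used of 156 that repeated another gene, and 11725 were tested with limma 3.58.1 in R 4.3.3 (trend, robust, two-sided) on log2(TPM + 1) with Benjamini-Hochberg adjustment at 0.05. The fit was tested on simulated data. Single values were compared by exact permutation. Lengths and coordinates came from GENCODE M21, where 35947 of 36708 IDs were found. The genes, lists and named genes were chosen with earlier results of these data known: all 10 genes, in each of 15 lists the 3 most abundant and up to 5 with an unadjusted p under 0.05, and the 10 genes most like them in pattern. The atrial genes, Myh7, Ttn, Pecam1, Cdh5, Col1a1, Myh11, Ngp, Pax5, Myh4, Atp2a3 and the Y-linked genes were named outside this rule, and a few listed genes are not reported here. Alternatives were the replicate number as a block, leaving out each library, removal of a length trend, library weights, limma without its options, scaling by median-of-ratios, quantile normalization, pseudocounts of 0.1 and 5, and a filter at 5 TPM or none. The depth is unknown, and the median half-width of a 95% interval of a log2 fold change was 0.41.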

Additional observations from a re-analysis of the deposited data

Results flagged for a closer look

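In 176 groups of 4 libraries, 12 held a library that lay far from the other 3 by Dixon's criterion at the 95% level. Chance flags about 1 in 20 groups. Among the 10 cardiomyocyte genes this touched Tnnc1 alone, where control library 4 was at 12.5 TPM and the other control libraries at 20.3 to 21.8 TPM. Of the other cardiac genes, Tcap was at 41.7 TPM in LOY library 1 (13.3 to 16.6 TPM in the other LOY libraries) and Lpl at 410 TPM in control library 2 (240 to 253 TPM in the others). LOY library 1 was also apart for Ighm at 920 TPM (453 to 496 TPM in the others), the B cell list at 976 TPM (516 to 565 TPM), C1qb at 11939 TPM (8557 to 9002 TPM), C1qc at 7768 TPM (4899 to 5358 TPM) and, on the low side, Itgav at 35.0 TPM (49.9 to 50.9 TPM). LOY library 2 was apart for haemoglobin, with Hbb-bs at 304 TPM (53.0 to 77.7 TPM in the others), Hba-a1 at 182 TPM (36.9 to 58.5 TPM) and the red blood cell list at 905 TPM (171 to 284 TPM). Control library 4 had S100a9, a neutrophil gene, at 6.17 TPM (0.130 to 0.865 TPM in the others).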

How the results depend on the processing

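Actn2 and Atp2a2 kept a positive log2 fold change and an unadjusted limma p under 0.05 under all alternatives in which they were tested (17 and 18). The 6 short genes reached that p under none, and their sign turned. With quantile normalization they were at -0.20 (Tnnt2), -0.059 (Tnni3), -0.22 (Tnnc1), -0.081 (Actc1), -0.15 (Myl2) and -0.16 (Myl3). With median-of-ratios scaling, which moves the median of all genes from 0.16 to 0.00 and the share of higher calls from 84.8% to 49.6% (quantile normalization 50.1%, length trend removed 49.9%), they were at -0.17, -0.029, -0.16, -0.046, -0.087 and -0.11 in that order. With library weights Tnnt2, Tnnc1, Actc1, Myl2 and Myl3 were at -0.063, -0.095, -0.031, -0.12 and -0.056. Leaving out 1 library gave ranges of -0.39 to 0.24 for Tnnt2, -0.13 to 0.31 for Tnni3, -0.18 to 0.12 for Tnnc1, -0.050 to 0.34 for Actc1, -0.13 to 0.23 for Myl2 and -0.23 to 0.27 for Myl3. Itgav turned to -0.026 with the length trend removed.

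The count of genes past the adjusted threshold, 0, was 3103 with library weights and ranged between 0 and 1805 with 1 library left out (1805 without control library 1, 5 without LOY library 2, 1 without control library 4). The 3 cardiomyocyte genes with an unadjusted p under 0.05 were 1 with a mean of at least 5 TPM, since Actn2 and Myh6 were then not tested, and 2 or 3 with 1 library left out. The 2 of the other cardiac lists were 4 with library weights and 1 to 3 with 1 library left out. The cause of these shifts was not tested. Same-numbered LOY and control libraries did not deviate together (r between -0.15 and 0.04). With the replicate number as a block, 0 genes passed, an unadjusted p under 0.05 was reached by 2077 that were higher and 412 that were lower, and Actn2, Atp2a2 and Myh6 had an adjusted p of 0.212.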
